A study of Homo sapiens with 4 samples.

Results

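The snoRNA host genes examined here are 31 of the 33634 gene symbols with a count in any of 4 RNA libraries of H9 cells, a line of human primed pluripotent stem cells. They were chosen by name, as the symbols made of SNHG and a number without SNHG14, together with GAS5, DANCR, ZFAS1 and EPB41L4A-AS1. The libraries come from nuclei lightly fixed with formaldehyde, in which poly(A) RNA was reverse transcribed (RT) with a poly-T primer that carries a unique molecular identifier. The Post libraries had RT after Tn5 tagmentation and the Pre libraries had RT before it. Both orders were run without DNA profiling (RNA only) and with it (RNA and DNA, with antibodies to H3K27me3 and H3K27ac), so each of the 4 conditions is 1 library of the same cell line. The sources used here do not say whether the nuclei came from the same culture, nor whether the RNA only libraries were tagmented in the same way. No difference below has a replicate check within a condition. The differences are given with counting intervals, and p-values appear only for an additive model run as an alternative. In bulk nuclei fewer cells of a type and less RNA per cell cannot be told apart.

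Small nucleolar RNAs (snoRNAs) are guides that direct chemical modification of ribosomal RNA. Those with C and D boxes (the SNORD genes) guide methylation of the ribose, and those with H and ACA boxes (the SNORA genes) guide the change of uridine to pseudouridine. The related scaRNAs stay in Cajal bodies and guide the same changes in spliceosomal RNAs. Most human snoRNAs are cut out of introns, and a host gene of the SNHG kind makes a spliced noncoding RNA whose introns carry them. Many of these spliced RNAs start with a run of pyrimidines like the mRNAs of ribosomal proteins, are bound by ribosomes in the cytoplasm and are short-lived there because nonsense-mediated decay removes them.

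The counts are deduplicated reads per gene, with totals of 6368721 to 10089552 per library, and were scaled to a total of 1000000 in each library (RPM). The 31 host genes together held 7120 counts in the RNA only Post library, against 9602 in the RNA only Pre library. They held 10601 in the RNA and DNA Post library, against 9433 in the RNA and DNA Pre library. Their summed level was 1118 RPM in the RNA only Post library and 1024 RPM in its Pre counterpart, and 1051 RPM and 1053 RPM in the Post and Pre libraries with DNA. The 6 genes that bear the clone names FP236383 or FP671120 took 34.8% of the counts of the RNA only Post library and between 10.7% and 15.8% of the others, which lowers the RPM of every other gene there. Without those 6 genes the host genes made up 0.172% of the remaining counts in the RNA only Post library, against 0.117% in the RNA only Pre library, and 0.125% against 0.118% in the Post and Pre libraries with DNA. Each log2 ratio of RPM + 1 is therefore given relative to the median over the 11564 genes whose mean reached 10 RPM. That median was −0.44 for Post over Pre without DNA and −0.09 with DNA. Intervals are 95% intervals from the counts without the added 1 RPM and cover counting error only.

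The labelled cell type was checked with marker genes. All 8 primed pluripotency markers had a mean of at least 10 RPM and summed to between 1864 and 2664 RPM per library. The 4 naive pluripotency markers summed to between 7.22 and 9.92 RPM, the 5 markers of mesendoderm and endoderm to between 2.98 and 5.80 RPM, the pair of neural markers to between 0.942 and 2.18 RPM and the pair of blood markers to between 0.213 and 1.29 RPM. The 4 fibroblast markers summed to between 131 and 191 RPM, most of it THY1, which pluripotent stem cells also carry.

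All 31 host genes matched the GENCODE 44 annotation of GRCh38, each as a long noncoding RNA gene. In RefSeq places, 65 named guide RNAs lie within their spans, 38 of the C/D class, 23 of the H/ACA class and 4 scaRNAs. A base of the canonical transcript's exons was covered by 5 of the 65, so the others lie in its introns or outside it. Hosts of C/D snoRNAs only were 11, hosts of H/ACA snoRNAs only 11 and hosts of both 3, with 4 hosts of a scaRNA only. SNHG27 and SNHG28 held none with a name. GAS5 carried the most, with 10 C/D snoRNAs and 1 of the H/ACA class, followed by SNHG1 with 8 C/D snoRNAs.

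The H/ACA guide RNAs of SNHG8, SNHG15, SNHG3 and SNHG12, the hosts with the highest ratios of Post over Pre in the RNA only libraries, are shown because all 4 carry this class, and SNORD44 of GAS5 and SNORD48 of SNHG32 because their hosts had lower ratios. SNORA44 and SNORD99, which SNHG12 also carries, had no match to the boxes searched below and are not shown. The sequences are read from GRCh38, 5′ to 3′ on the strand of the host, as DNA letters. Capitals mark the ACA box near the 3′ end in the H/ACA class, and the TGATGA of the C box and the CTGA of the D box in the C/D class.
SNORA24 of SNHG8, chr4:118279190-118279320, plus strand: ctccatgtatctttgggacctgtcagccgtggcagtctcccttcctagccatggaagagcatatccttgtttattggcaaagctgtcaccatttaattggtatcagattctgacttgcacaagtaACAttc
SNORA9 of SNHG15, chr7:44985378-44985510, minus strand: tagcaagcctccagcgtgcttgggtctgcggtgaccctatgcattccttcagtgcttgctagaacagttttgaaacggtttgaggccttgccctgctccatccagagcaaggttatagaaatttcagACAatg
SNORA73A of SNHG3, chr1:28507365-28507571, plus strand: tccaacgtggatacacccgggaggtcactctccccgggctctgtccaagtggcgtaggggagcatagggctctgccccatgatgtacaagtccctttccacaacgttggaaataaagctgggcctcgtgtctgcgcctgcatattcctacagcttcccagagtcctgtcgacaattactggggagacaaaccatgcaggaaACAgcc
SNORA73B of SNHG3, chr1:28508558-28508762, plus strand: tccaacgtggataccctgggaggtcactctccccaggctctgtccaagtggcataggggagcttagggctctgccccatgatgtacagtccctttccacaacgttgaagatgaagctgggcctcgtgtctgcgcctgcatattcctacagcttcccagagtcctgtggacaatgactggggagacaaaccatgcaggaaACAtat
SNORA61 of SNHG12, chr1:28579764-28579893, minus strand: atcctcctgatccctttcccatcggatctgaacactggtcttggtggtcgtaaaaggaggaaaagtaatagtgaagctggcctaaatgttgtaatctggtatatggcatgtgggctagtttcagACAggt
SNORA16A of SNHG12, chr1:28580920-28581053, minus strand: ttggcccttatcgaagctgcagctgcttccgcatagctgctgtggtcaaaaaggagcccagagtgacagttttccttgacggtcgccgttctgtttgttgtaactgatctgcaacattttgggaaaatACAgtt
SNORD44 of GAS5, chr1:173865968-173866028, minus strand: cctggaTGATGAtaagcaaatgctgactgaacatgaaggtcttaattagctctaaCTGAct
SNORD48 of SNHG32, chr6:31835263-31835326, plus strand: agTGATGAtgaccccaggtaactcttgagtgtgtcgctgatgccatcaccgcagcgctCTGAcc

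In each H/ACA sequence shown, 3 bases follow the ACA. SNORA73A and SNORA73B, the pair of guide RNAs in SNHG3 that take part in processing of the ribosomal RNA precursor, were identical at 194 of 208 aligned columns (93.3%). ACA within the last 6 bases was found in 21 of the 23 H/ACA snoRNAs of the host genes (91.3%) and in 145 of 164 over all annotated hosts (88.4%). TGATGA within the first 15 bases together with CTGA within the last 15 was found in 23 of 38 C/D snoRNAs of the host genes (60.5%) and in 198 of 340 over all hosts (58.2%). These matches were searched on the strand of the host only and are matches of letters. SNORD44 and SNORD48 are known as small RNAs often used to normalize microRNA measurements.

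A mean of at least 10 RPM was reached by 23 of the 31 host genes. Per kilobase of the canonical transcript, the order of mean levels began with SNHG29 (198 RPM per kb), GAS5 (155) and SNHG16 (107), followed by SNHG25 (66.8), SNHG1 (54.4) and SNHG3 (52.6). SNHG8 stood lowest of the 23 by this measure, at 2.58 RPM per kb. Lengths of the canonical transcript run from 311 bases in SNHG25 to 6166 in SNHG8, and with poly-T priming a longer transcript need not give more reads, so this order depends on the length chosen. GAS5, the growth arrest-specific transcript, had 117 RPM in the RNA only Post library, against 117 RPM in the RNA only Pre library, and 116 RPM in Post against 126 RPM in Pre with DNA. Its 4 values differed by a factor of 1.09 at most. At the other end SNHG8, SNHG15, SNHG12, SNHG3 and SNHG20 varied by a factor of 3.36, 2.99, 2.80, 2.16 and 2.02 between their highest and lowest library.

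**Figure D1:**
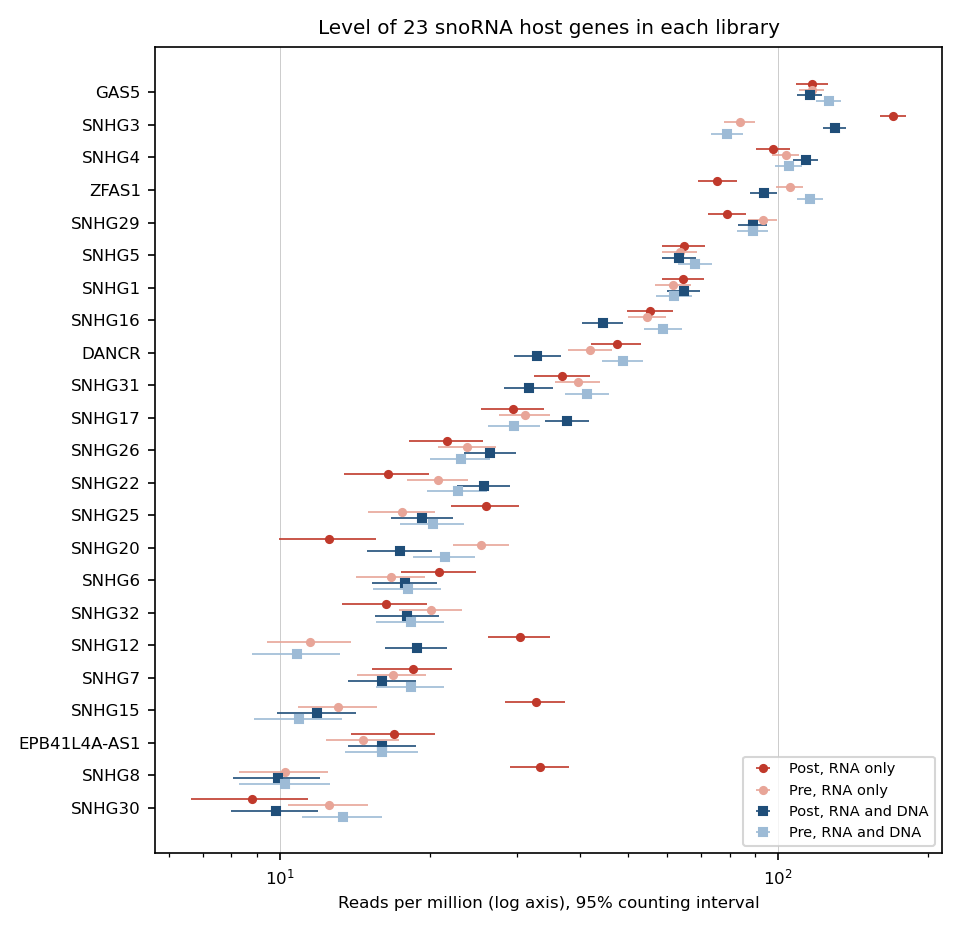
Level of the 23 snoRNA host genes that averaged 10 RPM or more in each of the 4 libraries, in RPM on a log axis, with 95% counting intervals, ordered by mean. The points of the RNA only Post library (dark red) lie far to the right of the others for SNHG8 and SNHG15. For SNHG12 and SNHG3 both Post libraries lie to the right of both Pre libraries, the RNA only Post library farthest. GAS5, SNHG5 and SNHG1 have nearly the same level in all libraries.

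The order of RT was compared within the RNA only libraries, called the pair without DNA below, and within the libraries that also profiled DNA, the pair with DNA. The 2 pairs share no library. Without DNA, 20 of the 23 host genes exceeded the median of all genes in Post relative to Pre, and their median relative log2 ratio was 0.46 (0.02 in plain RPM, which has no centring). At least 2-fold higher in Post were 4 of the 23, namely SNHG8, SNHG12, SNHG15 and SNHG3, where 1.33% of all genes tested were (154 of 11564). None of the 23 was 2-fold lower, where 0.0519% of all genes were. With DNA the median was 0.07 (−0.02 in plain RPM and with centring on noncoding genes), with 14 host genes higher and 9 lower than the gene in the middle, and none was 2-fold higher or lower, where 0.156% of all genes were higher and 0.0951% lower. None of the 23 was 2-fold higher in both pairs, where 0.147% of all genes were. At 1.5-fold, 8 of the 23 were higher in Post without DNA, where 5.26% of all genes were, and 2 with DNA, where 1.1% of all genes were. Those 2, SNHG12 and SNHG3, were higher in both pairs, where 0.571% of all genes were (66 of 11564). The RNA only Post library, in which the clone-named genes take 34.8% of the counts, enters the pair without DNA only. The part of that library's makeup in the higher ratios was not tested.

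**Figure D2:**
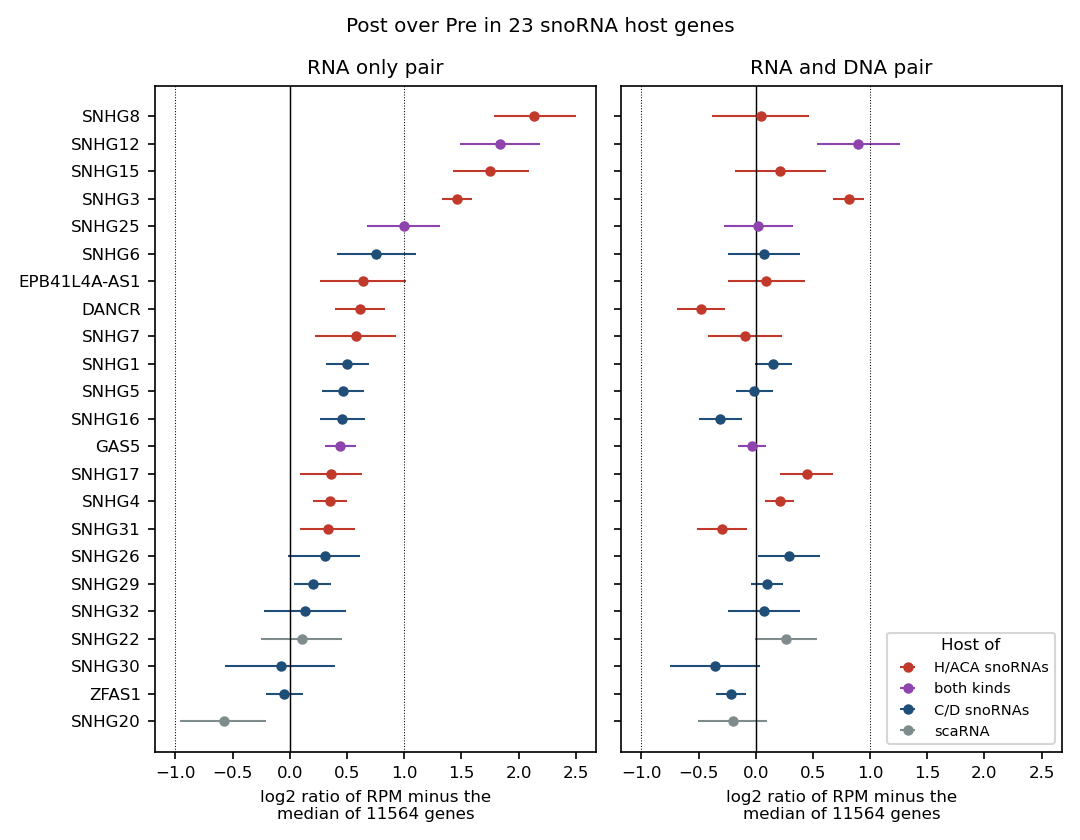
Post over Pre for the 23 host genes in the RNA only pair (left) and the RNA and DNA pair (right), as the log2 ratio of RPM minus the median of 11564 genes, with 95% counting intervals and no added RPM; colours give the class of guide RNA in the host and dotted lines mark 2-fold. SNHG8, SNHG12, SNHG15 and SNHG3 lie beyond 2-fold on the left, and on the right SNHG12 and SNHG3 lie farthest from 0.

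SNHG8, which carries SNORA24, had the highest ratio. It had 33.3 RPM (interval 29.0 to 38.1) in the RNA only Post library, against 10.2 RPM (8.29 to 12.5) in the RNA only Pre library, and 9.91 RPM (8.06 to 12.1) against 10.3 RPM (8.28 to 12.6) in the Post and Pre libraries with DNA. The RNA only Post library thus stood alone, and the other 3 did not differ beyond counting error. Relative to all genes, Post stood at 2.05 on the log2 scale in the pair without DNA (interval 1.78 to 2.50), rank 26 of 11564 genes, and 0.05 in the pair with DNA (−0.38 to 0.47).

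SNHG15, host of SNORA9 and known as a short-lived noncoding transcript, was also highest in the RNA only Post library. It had 32.7 RPM (28.4 to 37.4) in the RNA only Post library, against 13.1 RPM (10.9 to 15.6) in the RNA only Pre library. With DNA it had 11.9 RPM (9.86 to 14.2) in Post, against 10.9 RPM (8.88 to 13.3) in Pre. Only the RNA only Post library was apart from the rest, with relative log2 ratios of 1.69 (1.43 to 2.09) without DNA and 0.21 (−0.18 to 0.61) with DNA.

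SNHG12 and SNHG3, which lie near each other on chromosome 1 on opposite strands, were higher in Post in both pairs. SNHG12, from 28578538 to 28583132 on the minus strand, had 30.3 RPM (26.2 to 34.9) in the RNA only Post library, against 11.5 RPM (9.45 to 13.9) in the RNA only Pre library. It had 18.8 RPM (16.2 to 21.7) in the RNA and DNA Post library, against 10.8 RPM (8.78 to 13.2) in the RNA and DNA Pre library. Both Post intervals lay above both Pre intervals, and the relative log2 ratios were 1.76 without DNA, rank 45 of 11564, and 0.84 with DNA, rank 42. SNHG3, from 28505980 to 28510892 on the plus strand, had 170 RPM (160 to 181) in the RNA only Post library, against 83.8 RPM (78.0 to 89.9) in the RNA only Pre library. It had 130 RPM (123 to 137) in the RNA and DNA Post library, against 78.9 RPM (73.2 to 84.9) in the RNA and DNA Pre library. Its relative log2 ratios were 1.45 (1.33 to 1.60) without DNA and 0.81 (0.68 to 0.95) with DNA, ranks 77 and 46. Again both Post libraries stood above both Pre libraries.

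Among the other hosts of H/ACA snoRNAs, SNHG25, a gene of 2 exons that carries SNORA50C and SNORD104, came next. It had 25.9 RPM in the RNA only Post library, against 17.6 RPM in the RNA only Pre library, and 19.3 RPM in Post against 20.3 RPM in Pre with DNA. Its relative log2 ratio of 0.97 in the pair without DNA lay just under 2-fold, and that of the pair with DNA was 0.03. EPB41L4A-AS1, host of SNORA13, had 17.0 RPM in Post against 14.7 RPM in Pre without DNA, and 16.1 RPM in both libraries with DNA, with ratios of 0.63 and 0.09. SNHG7, which holds SNORA17A and SNORA17B, had 18.5 RPM in Post against 16.8 RPM in Pre in the pair without DNA and 16.1 RPM in Post against 18.3 RPM in Pre in the pair with DNA. Its ratios of 0.57 (0.22 to 0.93) and −0.08 (−0.42 to 0.23) differed from 0 beyond counting error without DNA only.

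DANCR, host of SNORA26 and known for holding progenitor cells back from differentiation, lay on opposite sides of the median in the 2 pairs. It had 47.4 RPM in the RNA only Post library, against 42.0 RPM in the RNA only Pre library, and 32.9 RPM in the RNA and DNA Post library, against 48.9 RPM in the RNA and DNA Pre library. In RPM the RNA and DNA Post library was thus the lowest. The ratios of Post over Pre were 0.61 (0.39 to 0.83) without DNA and −0.46 (−0.69 to −0.27) with DNA. Those of RNA and DNA over RNA only were −0.89 in the Post pair and 0.19 in the Pre pair. SNHG31, host of SNORA70I, had 36.9 RPM in Post against 39.7 RPM in Pre in the pair without DNA and 31.6 RPM in Post against 41.4 RPM in Pre in the pair with DNA. Its ratios, 0.34 (0.09 to 0.57) and −0.28 (−0.52 to −0.08), had opposite signs too.

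SNHG17 and SNHG4 had positive ratios in both pairs. SNHG17 holds 4 guide RNAs of the SNORA71 family and had 29.4 RPM in Post against 31.0 RPM in Pre without DNA, and 37.8 RPM in Post against 29.6 RPM in Pre with DNA. Its ratios were 0.36 (0.09 to 0.63) and 0.44 (0.22 to 0.68), so that in the pair with DNA it came behind SNHG12 and SNHG3 among the 23, at rank 318 of 11564. SNHG4, host of SNORA74A and SNORA74D, had 97.7 RPM in Post against 104 RPM in Pre without DNA, and 114 RPM in Post against 105 RPM in Pre with DNA. Its ratios of 0.35 and 0.21 had intervals that overlapped and lay above 0. GAS5, with its mixed set of guides, had ratios of 0.44 without DNA and −0.03 with DNA.

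The 9 measured hosts of C/D snoRNAs only had ratios from −0.04 to 0.74 without DNA, whereas the 9 measured hosts of H/ACA snoRNAs only had ratios from 0.34 to 2.05. SNHG1, the host of 8 C/D snoRNAs, had 64.5 RPM in the RNA only Post library, against 61.6 RPM in the RNA only Pre library, and 64.6 RPM in Post against 61.9 RPM in Pre in the libraries with DNA, a range of 1.05-fold. SNHG5, host of SNORD50A and SNORD50B, had 64.7 RPM in Post against 63.5 RPM in Pre without DNA and 63.3 RPM in Post against 68.2 RPM in Pre with DNA, a range of 1.08-fold. These were among the steadiest levels of the 23, and their ratios relative to all genes were 0.50 and 0.46 in the pair without DNA and 0.15 and −0.01 in the pair with DNA. SNHG16, which carries the SNORD1 guides, had 55.4 RPM in Post against 54.6 RPM in Pre without DNA, and 44.5 RPM in Post against 58.8 RPM in Pre with DNA. Like DANCR it was lowest in the RNA and DNA Post library, with ratios of 0.46 (0.26 to 0.66) and −0.30 (−0.49 to −0.12).

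ZFAS1, the antisense transcript at the 5′ end of ZNFX1 and host of the SNORD12 guides, had lower values in Post in both pairs before centring. It had 75.5 RPM in Post against 106 RPM in Pre without DNA and 93.6 RPM in Post against 116 RPM in Pre with DNA. Relative to all genes this was −0.04 (−0.21 to 0.11) and −0.21 (−0.34 to −0.09), so the difference went beyond counting error in the pair with DNA only. SNHG29, which carries SNORD49A, SNORD49B and SNORD65, had 79.1 RPM in Post against 93.3 RPM in Pre without DNA and 89.0 RPM in Post against 88.9 RPM in Pre with DNA. Its ratios of 0.20 and 0.09 lay near the median of all genes. SNHG26, host of SNORD93, had 21.7 RPM in Post against 23.8 RPM in Pre without DNA and 26.5 RPM in Post against 23.1 RPM in Pre with DNA, with ratios of 0.31 and 0.28. Each ratio lay within the interval of the other.

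The remaining hosts of C/D snoRNAs had between 8.79 and 20.9 RPM in every library. SNHG6, host of SNORD87, had 20.9 RPM in Post against 16.7 RPM in Pre without DNA and 17.8 RPM in Post against 18.1 RPM in Pre with DNA. Its ratio of 0.74 (0.41 to 1.10) in the pair without DNA was the highest of the hosts without an H/ACA snoRNA, and that of the pair with DNA was 0.08. SNHG32, host of SNORD48 and SNORD52, had 16.3 RPM in Post against 20.2 RPM in Pre without DNA and 18.0 RPM in Post against 18.3 RPM in Pre with DNA, with ratios of 0.15 and 0.07. SNHG30, host of SNORD7, had 8.79 RPM in Post against 12.6 RPM in Pre without DNA and 9.81 RPM in Post against 13.4 RPM in Pre with DNA, with ratios of −0.03 and −0.32. The intervals of SNHG32 and SNHG30 held 0 in both pairs.

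The 2 measured hosts of a scaRNA only had ratios of −0.52 and 0.12 without DNA. SNHG20, which carries SCARNA16, had 12.6 RPM (9.96 to 15.6) in the RNA only Post library, against 25.4 RPM (22.3 to 28.8) in the RNA only Pre library, and 17.4 RPM in Post against 21.4 RPM in Pre with DNA. It was the only one of the 23 whose interval without DNA lay wholly below 0 (−0.96 to −0.21). With DNA its ratio was −0.19, with an interval that held 0 (−0.51 to 0.10). SNHG22, host of SCARNA17, had 16.5 RPM in Post against 20.8 RPM in Pre without DNA and 25.7 RPM in Post against 22.8 RPM in Pre with DNA, and its intervals held 0 in both pairs.

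The 8 host genes under 10 RPM were SNHG10, SNHG19, SNHG9, SNHG21, SNHG18, SNHG11, SNHG27 and SNHG28. SNHG10, host of SCARNA13, had 52 counts in the RNA only Post library against 62 in the RNA only Pre library, and 86 in Post against 58 in Pre with DNA, or 6.47 to 8.52 RPM. Over the libraries SNHG19 had 5.34 to 5.80 RPM, SNHG9 3.09 to 4.40, SNHG21 2.67 to 3.57, SNHG18 2.08 to 3.52 and SNHG11 1.26 to 2.38. SNHG27 and SNHG28, which hold no named guide RNA, had between 2 and 5 counts in every library, too few to compare. Only SNHG10 and SNHG9 had an interval that lay wholly above 0 in the pair without DNA, with lower bounds of 0.18 and 0.14. With DNA the intervals of all 8 held 0.

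Grouped by guide RNA, a split made after the values were seen, the 12 measured hosts with any H/ACA snoRNA had a median relative log2 ratio of 0.62 in the pair without DNA, and all 12 had a positive ratio. The 11 without one had a median of 0.20, with 8 positive. All 4 host genes at least 2-fold higher were among the 12. In the pair with DNA the medians of both groups were 0.07. Other hosts were split too, with hosts of a scaRNA only set apart. These were 203 measured genes outside the list that hold a named guide RNA and encode no ribosomal protein. The median in the pair without DNA was 0.02 for the 92 with any H/ACA snoRNA and −0.05 for the 88 with C/D snoRNAs only. It was 0.05 for the 23 with a scaRNA only, and 0.44 for the 7 of the 92 with both kinds. At least 2-fold higher among the 203 was 1 gene, PARP16, an H/ACA host that encodes an enzyme of the endoplasmic reticulum. It had 41.5 RPM in the RNA only Post library, against 16.6 RPM in the RNA only Pre library, and 14.0 RPM in Post against 13.9 RPM in Pre with DNA, so that, as for SNHG8, the RNA only Post library was the highest. The median of the listed genes was 0.46 without DNA, against −0.02 for the 203, and 0.07 with DNA, against −0.03 for the 203.

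Ribosomal protein genes were set beside the host genes because snoRNA hosts and ribosomal proteins both serve ribosome production and many genes of both kinds start with a pyrimidine tract. The 23 host genes had a median of 0.46 without DNA, against 0.84 for the 81 measured ribosomal protein genes, all of which had positive ratios. With DNA the host genes had a median of 0.07, against −0.50 for the ribosomal protein genes, 80 of which had negative ratios. The 29 ribosomal protein genes that themselves hold a snoRNA had medians of 0.85 and −0.47, close to those of the 52 that hold none, at 0.84 and −0.57. Both groups thus stood higher in Post without DNA, while with DNA the host genes were near the middle of all genes and the ribosomal protein genes below it. The ribosomal protein gene with the highest ratio with DNA was RPL39L, with a mean of 21.0 RPM and a ratio of 0.23. It was the only one of the 81 with a positive ratio, whereas 14 of the 23 host genes had one. Above 0.23 lay 5 of the 23 host genes, namely SNHG12, SNHG3, SNHG17, SNHG26 and SNHG22. The difference between these lists was not tested, since each condition is 1 library.

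**Figure D3:**
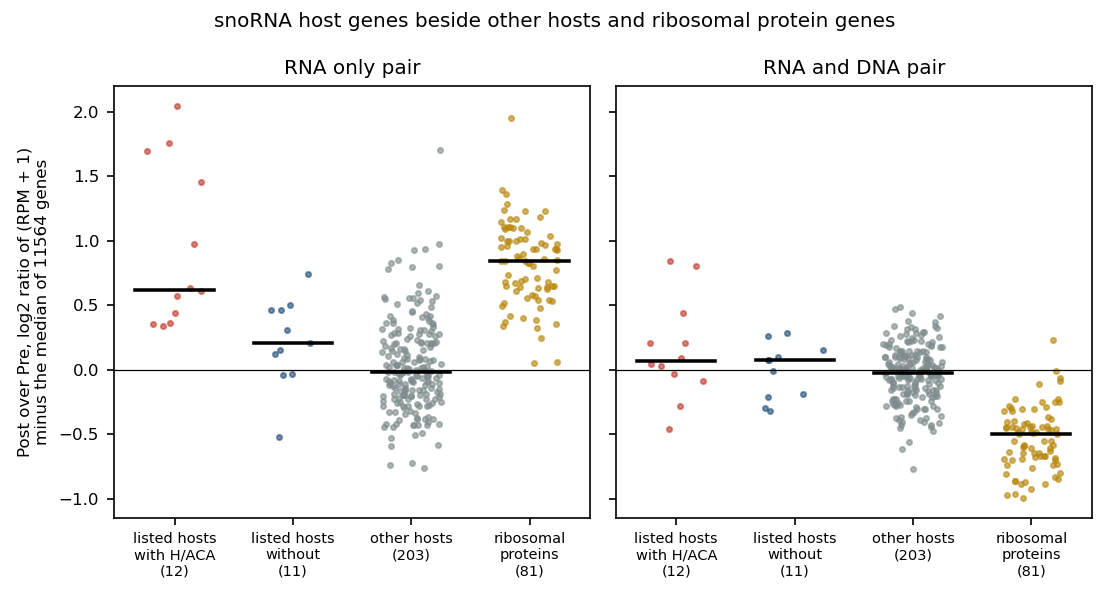
Post over Pre as the log2 ratio of RPM + 1 minus the median of 11564 genes, in the RNA only pair (left) and the RNA and DNA pair (right), for the 12 listed host genes with an H/ACA snoRNA, the 11 without, 203 other hosts that encode no ribosomal protein and 81 ribosomal protein genes; each point is a gene and black lines are medians. Ribosomal protein genes lie at a median of 0.84 on the left and −0.50 on the right, whereas both groups of listed hosts lie at 0.07 on the right.

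The start sites were searched for the tract in the RefSeq promoter table of GRCh38.p14, which holds 27 of the 31 host genes. SNHG6, SNHG9, SNHG15 and SNHG25 have no entry there. A tract was a C followed by at least 4 bases that are each C or T, beginning within 5 bases of the annotated start on the strand of the gene. It was found in 13 of the 27 host genes (48.1%), in 59 of 84 ribosomal protein genes (70.2%) and in 21.1% of all 35116 promoters. The windows below run from 20 bases before the start to 30 bases after it, with the tract in capitals, for the hosts with the longest tracts among those measured, SNHG4 and SNHG12, for SNHG8 and ZFAS1, and for SNHG3, in which none was found.
SNHG12, chr1:28581844-28581893, minus strand: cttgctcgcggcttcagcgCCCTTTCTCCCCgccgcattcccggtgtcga
SNHG8, chr4:118278742-118278791, plus strand: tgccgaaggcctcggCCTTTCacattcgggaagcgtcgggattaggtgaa
SNHG3, chr1:28505923-28505972, plus strand: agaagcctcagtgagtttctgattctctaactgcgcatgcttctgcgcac
SNHG4, chr5:139274081-139274130, plus strand: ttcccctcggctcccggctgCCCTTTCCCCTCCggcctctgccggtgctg
ZFAS1, chr20:49278622-49278671, plus strand: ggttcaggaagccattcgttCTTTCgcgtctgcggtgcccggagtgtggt

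The 11 measured hosts with the tract had a median relative log2 ratio of 0.46 in the pair without DNA, from −0.04 in ZFAS1 to 2.05 in SNHG8. The 9 without it had a median of 0.31, from −0.52 in SNHG20 to 1.45 in SNHG3. In the pair with DNA the medians were −0.01 and 0.09. The ranges overlapped between −0.04 and 1.45, and a start annotated a few bases away would be missed by this search. The windows of SNHG3 and GAS5, whose last bases lie at 28505972 and 173869016, are wholly upstream of their GENCODE spans. Those spans start at 28505980 and 173868882, and both genes are among the 9 without the tract. Other windows lie inside the GENCODE span, away from its start, in hosts with and without the tract. On the minus strand the span of SNHG12, with the tract, starts at 28583132 and its window at 28581893. The span of ZFAS1, with the tract, starts at 49278178 and its window at 49278622. The span of SNHG20, without it, starts at 77086716 and its window at 77088623. A tract at the GENCODE starts was not searched for.

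DNA profiling was compared within the Post pair and within the Pre pair. These comparisons use the same 4 libraries as those of the order of RT, so they are not separate evidence, and the RNA only Post library enters both the Post pair here and the pair without DNA above. In the Pre pair the host genes differed little. Their relative log2 ratios of RNA and DNA over RNA only ran from −0.27 in SNHG15 to 0.19 in DANCR with a median of 0.04, the intervals of all 23 held 0, and none was 2-fold higher or lower, where 0% and 0.0173% of all genes were. In the Post pair 21 of the 23 had negative ratios, with a median of −0.41 (−0.03 in plain RPM). At least 2-fold lower with DNA were 3 of the 23, SNHG8 at −2.03, SNHG15 at −1.76 and SNHG12 at −1.04, where 2.32% of all genes were, 9 were at least 1.5-fold lower, where 7.63% of all genes were, and none was 2-fold higher, where 0.0432% of all genes were. SNHG8 stood at rank 11556 of 11564 and SNHG15 at rank 11540. Next came DANCR at −0.89, SNHG25 at −0.78, SNHG3 at −0.77 and SNHG16 at −0.69, and only SNHG22 and SNHG20 had positive ratios, 0.23 and 0.07. The intervals of 16 lay wholly below 0 and those of none wholly above it. Intervals were not computed for all genes, so these interval counts have no share of all genes beside them. The medians of the 81 ribosomal protein genes were −1.19 in the Post pair and 0.17 in the Pre pair, and those of the 203 other hosts −0.05 and −0.01.

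**Figure D4:**
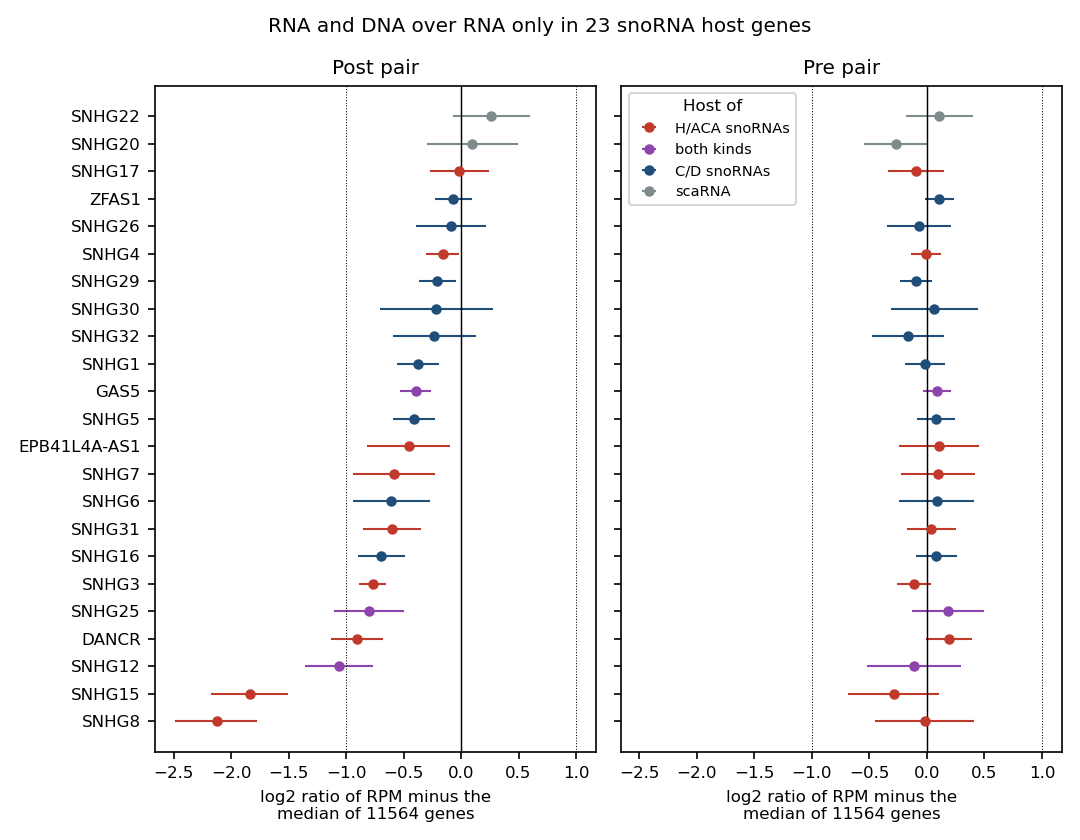
RNA and DNA over RNA only for the 23 host genes in the Post pair (left) and the Pre pair (right), as the log2 ratio of RPM minus the median of 11564 genes, with 95% counting intervals; colours give the class of guide RNA and dotted lines mark 2-fold. SNHG8 and SNHG15 lie farthest to the left in the Post pair, and in the Pre pair every interval holds 0.

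The proteins that pack snoRNAs and the enzymes around them were described from lists of their genes. Of the C/D core proteins, NOP56 had 153 RPM in the RNA only Post library, against 172 RPM in the RNA only Pre library, and 185 RPM in Post against 194 RPM in Pre with DNA. The methyltransferase FBL had 68.9 RPM in Post against 83.8 RPM in Pre without DNA and 64.6 RPM in Post against 92.8 RPM in Pre with DNA. NOP58, the partner of NOP56, had ratios of Post over Pre of −0.11 without DNA and −0.23 with DNA, and SNU13, which binds the folded boxes, had −0.04 and −0.48. None of these 4 C/D core proteins was 2-fold apart in any comparison, with list medians of 0.06 for Post over Pre in the pair without DNA and −0.32 in the pair with DNA. Of the H/ACA core proteins, the pseudouridine synthase DKC1 had 56.5 RPM in Post against 77.9 RPM in Pre without DNA and 60.8 RPM in Post against 88.9 RPM in Pre with DNA. NHP2 had ratios of 0.55 and −0.60 and GAR1 had −0.28 and −0.61, so the 3 measured ones had list medians of −0.02 and −0.60, and NOP10 lay under 10 RPM on average. None of the 3 was 2-fold apart between Post and Pre, and NHP2 was 2-fold lower with DNA in the Post pair, at −1.02.

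The 11 assembly and trafficking factors had medians of 0.04 without DNA and −0.20 with DNA, and the 5 measured enzymes of snoRNA release and trimming −0.07 and −0.04. For nonsense-mediated decay, SMG1, the kinase of UPF1, had ratios of 0.06 and 0.19, and the endonuclease SMG6 had −0.64 and 0.08. UPF2, a partner of UPF1, had −0.06 and 0.04, and the 9 measured decay factors had medians of −0.06 and −0.07. The 6 measured nuclear long noncoding RNAs outside the SNHG kind had medians of −0.10 and −0.15. None of the genes measured in these lists was 2-fold apart between Post and Pre in either pair, and all list medians without DNA lay below the 0.46 of the host genes.

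Annotated exons of 21 host genes, 18 of them measured, share bases with another gene, and the strand setting of the counting is not given in the sources used here, so reads may have been split or shared there. The partners were not alike. RCC1, which shares 242 exon bases with SNHG3 on the same strand, had 211 RPM in the RNA only Post library, against 158 RPM in the RNA only Pre library, and 189 RPM in Post against 144 RPM in Pre with DNA, with ratios of 0.85 and 0.48. It lay on the same side as SNHG3 in both pairs, and since its span also holds the snoRNAs of SNHG3 it is one of the 203 other hosts, with the highest ratio of them with DNA. PRSS12, opposite to SNHG8 over 2487 exon bases, had 5.50 RPM in Post against 6.50 RPM in Pre without DNA and 7.24 RPM in Post against 7.70 RPM in Pre with DNA, so it did not share the high level of SNHG8 in the RNA only Post library. TRNAU1AP, opposite to SNHG12 over 8 bases, had 19.5 RPM in Post against 45.0 RPM in Pre without DNA and 27.3 RPM in Post against 40.1 RPM in Pre with DNA, the other way round from SNHG12. LINC01618, on the strand of DANCR, had 68.6 RPM in Post against 62.9 RPM in Pre without DNA and 54.9 RPM in Post against 70.4 RPM in Pre with DNA, with opposite signs of the ratio like DANCR. SEC14L1, on the strand of SNHG20, had ratios of −0.40 and −0.12, beside −0.52 and −0.19 for SNHG20. MATR3, on the strand of SNHG4 over 626 exon bases, had 445 RPM in Post against 518 RPM in Pre without DNA. With DNA it had 496 RPM in Post against 568 RPM in Pre. Its ratios were 0.22 and −0.10, beside 0.35 and 0.21 for SNHG4, so the signs differed in the pair with DNA. LINC01618 and SEC14L1 are, like RCC1, among the 203 other hosts. SNHG15 shares exon bases with no other annotated gene.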

How the data were processed

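The authors matched barcodes with Bowtie 1.3.1, trimmed reads with Trim Galore 0.6.10, aligned RNA reads to GRCh38 with STAR 2.7.11b and removed duplicates, and the deposited files hold whole-number counts per gene symbol. The annotation and strand setting behind these counts are not given in the sources used here. In the 4 files, 60 columns named for no labelled sample were not used.

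Counts were scaled to RPM, and log2 ratios of RPM + 1 were centred on the median of the 11564 genes with at least 10 RPM on average; 2-fold differences were counted. With 1 library per condition no comparison has replicates, and an additive model over the 4 libraries, with 1 residual degree of freedom, was run as an alternative only. Intervals are 95% exact Poisson (levels) or binomial (ratios) and cover counting error only. The calls and intervals were run on simulated Poisson counts. Those counts hold counting error only, so this run does not test differences in makeup between the libraries. Every host gene with a mean of at least 10 RPM is named with its 4 values, the others are named, and of each protein list with named genes those highest in mean level were taken, at most 4; of the decay factors, 1 of these is not reported here. The genes and lists were chosen with earlier results of these data known, and the split by guide RNA, the start tract search and PARP16 after the values were seen. Genes were placed with GENCODE 44; snoRNAs, promoters and sequences are from RefSeq on GRCh38.p14. Tools were R 4.3.3 with edgeR 4.0.16, DESeq2 1.42.0 and limma 3.58.1, and Python 3.11.15 with scipy 1.17.1, pandas 2.3.3, numpy 2.4.6 and matplotlib 3.10.9.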

Additional observations from a re-analysis of the deposited data

Results flagged for a closer look

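Results that point in opposite directions in comparable pairs are given here as values, and with 1 library per condition the difference between the pairs was not tested. For Post over Pre, 3 host genes had counting intervals on opposite sides of 0 in the pairs without and with DNA. DANCR had relative log2 ratios of 0.61 without DNA and −0.46 with DNA, SNHG16 had 0.46 and −0.30, and SNHG31 had 0.34 and −0.28. In all 3 the level was lowest in the RNA and DNA Post library. The interval rule was applied to the host genes only, so its share over all genes is not known. Opposite signs were also common among the 81 measured ribosomal protein genes. All 81 had positive ratios without DNA and 80 had negative ratios with DNA. For RNA and DNA over RNA only, the median of the 23 host genes was −0.41 in the Post pair and 0.04 in the Pre pair.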

How the results depend on the processing

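Of 180 values recomputed under the alternatives, 170 stayed within their limits, 10 moved and 0 reversed. The limit of a median was the median half-width of the host genes' intervals, and that of a count above 0 was 1.5-fold. A count could not be called reversed. Nor could the median for Post over Pre with DNA (0.07, half-width 0.27) or that of the Pre pair (0.04, half-width 0.28). The median with DNA changed sign within its limit, to −0.020 in plain RPM, −0.017 with centring on noncoding genes and −0.010 without a filter. Plain RPM with no centring, where the median of all genes lay at −0.44 without DNA, moved the median of the host genes for Post over Pre without DNA to 0.022 and that for RNA and DNA over RNA only in the Post pair to −0.030, and SNHG8, SNHG12, SNHG15 and SNHG3 were 2-fold higher in Post without DNA there as well. Under the other scalings, filters, pseudocounts, centrings and thinning to the smallest total, the median without DNA ran between 0.22 and 0.50. At a mean of at least 50 RPM, which leaves 8 host genes, 1 was 2-fold higher without DNA and 0 were 2-fold lower with DNA in the Post pair. Among the 5 measured host genes that overlap no exon of another gene these counts were 1 and 1. At 1.5-fold in place of 2-fold, 8 were higher in Post without DNA, 2 were higher in Post with DNA and 9 were lower with DNA in the Post pair, beside 608, 127 and 882 of 11564 genes. No paired analysis was possible because each condition holds 1 library and so no second replicate number to pair by. In the additive model that follows, the residual is the difference between the 2 pairs of a factor. Its p-values therefore measure no spread between replicates of a condition. An additive model of the order of RT and DNA profiling over the 4 libraries, which compares Post with Pre within both DNA settings and has 1 residual degree of freedom, called 1 host gene for the order of RT with DESeq2 (SNHG3, log2 fold 1.15, adjusted p = 0.0103) and 0 with edgeR's quasi-likelihood test (lowest adjusted p = 0.686 among the host genes, 5 of which had an unadjusted p under 0.05). Over all 11564 genes DESeq2 called 26 and edgeR 2, with 108 and 357 at an unadjusted p under 0.05. For DNA profiling both tools called 0 host genes, with 1 at an unadjusted p under 0.05 in each, beside 1 gene called by DESeq2 and 0 by edgeR over all genes, with 35 and 67 at an unadjusted p under 0.05. Host genes near 10 RPM rest on few counts, and smaller differences there were not detectable at this depth. SNHG30, for example, had 56 counts in the RNA only Post library and 99 to 120 in the others.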
